A study of Mus musculus with 12 samples.

Results

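The 9 genes described here, Ly6d, Anxa1, Anxa2, Anxa3, Anxa5, Sprr1a, Tnfrsf12a, Tff3 and Cdkn1a, encode surface, membrane-binding, secreted and cell cycle proteins that have been linked to injured or stressed epithelium. They were taken by symbol from the 14822 genes of the deposited liver table, with the differences between its groups already known, so their levels and differences are given as a description and carry no test. All 9 were among the 10988 genes that entered the fits, with at least 1 TPM in at least 4 of the 12 libraries. TPM is a relative abundance of transcripts, corrected for their length, with the same total in each library. Sprr1a passed this filter only through the MASH vehicle group. The same held for some of the related genes named below, Plaur, Atf3, Birc5 and Lor among them, which would have failed it without that group. The adjusted p-values of such genes, and their part in the counts of a list, are a description and no test. MASH is metabolic dysfunction-associated steatohepatitis, in which fat storage in liver comes with inflammation and scarring, and the study asked what the hormone FGF21 does to it.

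Polyadenylated RNA of whole liver was measured in 3 groups of 4 libraries, all from C57BL6/J mice, with treatment lasting 4 weeks. The FGF21 group ate a MASH-inducing diet and received FGF21 at 1 mg per kg per day. The MASH vehicle group ate the same diet with saline in place of FGF21, and the chow group ate chow with saline. The labels give neither the composition and length of the diet before treatment nor the sex and age of the mice, and they do not say whether the libraries of a group stem from different mice. If they do not, the p-values below set group differences against a spread between samples that may be technical, and they do not apply to mice.

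Annexins are calcium-dependent proteins that bind negatively charged phospholipids and take part in membrane repair, vesicle traffic and the control of inflammation. Several act with a small S100 protein, as Anxa2 does with S100a10 at the cell surface, where the pair binds plasminogen. Ly6d is a GPI-anchored antigen of the Ly6 family known from keratinocytes and lymphoid progenitors, Sprr1a is a precursor of the cornified envelope of skin, Tnfrsf12a is the receptor Fn14 for the cytokine TWEAK, Tff3 is a trefoil peptide secreted by mucous epithelia, and Cdkn1a is the cyclin-dependent kinase inhibitor p21.

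The sum of the library values was close to 1000000 TPM in each library (991794 to 999890), with FGF21 replicates 1 and 3 the furthest below. Those 2 libraries also stood apart in an acinar pancreas gene, Cela2a, with 425 and 616 TPM against at most 0.5 TPM in the other 10. Since TPM carries no read depth, how many reads stand behind a value is unknown. Across all tested genes the median log2 fold change was −0.03 for FGF21 against MASH vehicle, 0.19 for MASH vehicle against chow and 0.20 for FGF21 against chow. With median-of-ratios scaling these medians were −0.02, −0.01 and 0.02, so fold changes against chow are to be read relative to a shift of that size. Each fold change is a difference of group means of log2(TPM + 1), so that changes of genes at low levels come out too small. Hepatocyte markers such as albumin were abundant in every library, and the sum of 8 of them was 66724 to 75880 TPM in FGF21, 56531 to 62074 TPM in MASH vehicle and 55958 to 67652 TPM in chow. The sum does not show the single markers. On the diet limma called 4 of the 8 lower (Apoc3, Ttr, Cps1 and Tat), where 7.84% of all tested genes fell. Quantile normalization left 2. Against MASH vehicle 0 were called with FGF21, where 10.3% of all tested genes were called. For FGF21 against chow the same 4 were lower, where 14.2% of all tested genes fell. In that contrast 3 were higher (Alb, Apoa1 and Hnf4a), a share close to the 37.8% of all tested genes that rose. With median-of-ratios scaling, quantile normalization and the GC trend removed, 1, 2 and 0 were higher and 4, 2 and 3 lower. The RNA is of whole liver, so the values do not show which cells the 9 genes came from, and fewer cells of a type cannot be told apart from less RNA per cell.

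RefSeq promoter sequence (build GRCm38.p6) was found for 6 of the 9 genes, and Ly6d, Anxa3 and Tff3 had no entry. The 250 bases before each start were searched on both strands for 5 motifs: AP-1 (TGANTCA), TEAD (GGAATG), the TATA box (TATAAA), the GC box (GGGCGG) and the p53 decamer. Of all 32851 RefSeq windows of this length, 6.75% held the AP-1 letters, 12.6% the TEAD letters, 12.4% the TATA box, 32.7% the GC box and 7.13% the p53 decamer. Among the 8750 tested genes with an entry, counting a gene where any of its windows held the letters, the shares were 5.81% for AP-1, 12.8% for TEAD, 8.06% for the TATA box, 63.5% for the GC box and 7.26% for the p53 decamer. The 3 windows shown are those of Anxa2 and Sprr1a, which hold the AP-1 letters, and of the first Cdkn1a start, which holds 2 p53 decamers. Capitals mark the AP-1 matches in Anxa2 and Sprr1a and the p53 decamers in Cdkn1a, and each run is printed 5′ to 3′ on the strand of its gene (Anxa2 chr9:69453433-69453682, plus strand; Sprr1a chr3:92485882-92486131, minus strand; Cdkn1a chr17:29090729-29090978, plus strand).
Anxa2: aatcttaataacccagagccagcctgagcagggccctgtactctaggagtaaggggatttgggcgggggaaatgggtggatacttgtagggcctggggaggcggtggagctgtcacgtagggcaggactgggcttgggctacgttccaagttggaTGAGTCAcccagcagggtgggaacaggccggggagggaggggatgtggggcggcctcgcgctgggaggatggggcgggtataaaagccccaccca
Sprr1a: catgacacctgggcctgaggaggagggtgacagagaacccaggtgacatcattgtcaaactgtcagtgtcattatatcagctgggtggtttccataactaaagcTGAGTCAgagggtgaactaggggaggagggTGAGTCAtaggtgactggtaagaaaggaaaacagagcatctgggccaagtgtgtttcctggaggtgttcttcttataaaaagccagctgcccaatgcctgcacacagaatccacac
Cdkn1a: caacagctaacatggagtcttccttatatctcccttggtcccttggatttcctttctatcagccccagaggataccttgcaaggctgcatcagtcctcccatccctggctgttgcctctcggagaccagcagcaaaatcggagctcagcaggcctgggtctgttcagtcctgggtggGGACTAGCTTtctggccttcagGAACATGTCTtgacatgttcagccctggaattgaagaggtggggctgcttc

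The AP-1 match of Anxa2 lay at −95 to −89 from the start, and those of Sprr1a at −146 to −140 and −116 to −110. Both genes also held a TATA box near the start, at −17 to −12 in Anxa2 and at −43 to −38 in Sprr1a. The p53 decamers of Cdkn1a lay at −73 to −64 and −51 to −42 of its first RefSeq start, and its second start held none and 2 GC boxes instead. Anxa1 held a p53 decamer at −136 to −127, a TEAD match at −236 to −231 and a TATA box at −32 to −27. Tnfrsf12a held 5 GC boxes, of which the last 2 are adjacent, and Anxa5 held none of the 5 motifs. These matches describe the letters in these windows and were not tested as binding sites.

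**Figure D1:**
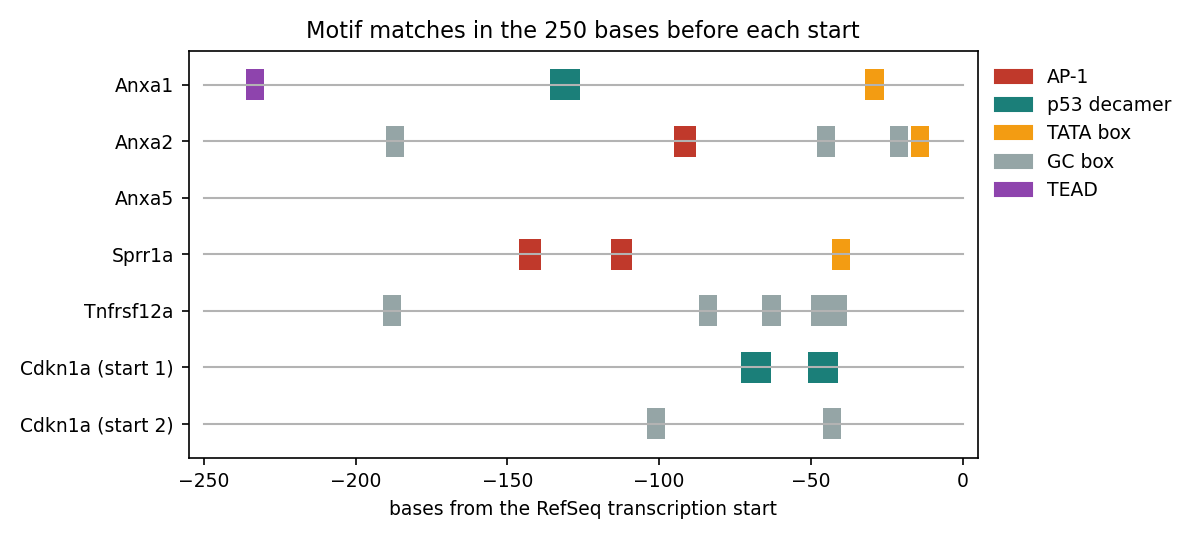
Positions of motif matches in the 250 bases before each of 7 RefSeq starts of 6 genes, in bases from the start on the x axis, with 1 line per start and 1 colour per motif. The AP-1 matches lie in the windows of Anxa2 and Sprr1a, the p53 decamers in Anxa1 and the first Cdkn1a start, and no match lies in the window of Anxa5.

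Ly6d (chromosome 15, 74762056 to 74763620, minus strand; protein-coding in build GRCm38, as are the other 8 genes) stood at 17, 15.3, 16.3 and 4.9 TPM in FGF21, at 70.5, 80.8, 104 and 136 TPM in MASH vehicle and at 1.7, 5.1, 2.9 and 2.1 TPM in chow. Every MASH vehicle library lay above every FGF21 and every chow library, while FGF21 replicate 4, at 4.9 TPM, lay below chow replicate 2. The means were 13.4 ± 5.69 TPM in FGF21, 97.8 ± 28.9 TPM in MASH vehicle and 2.95 ± 1.52 TPM in chow (SD, n = 4 in each group here and for every mean below). The log2 difference was −2.86 ± 0.349 (SE) for FGF21 against MASH vehicle, 4.67 ± 0.349 for MASH vehicle against chow and 1.81 ± 0.349 for FGF21 against chow. Ranked by mean TPM among the 14822 genes, Ly6d was at place 4813 in FGF21, 1157 in MASH vehicle and 8223 in chow. Without FGF21 replicates 1 and 3 the FGF21 difference was −3.29 ± 0.421 from MASH vehicle and 1.38 ± 0.421 from chow.

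Other genes of the Ly6 and uPAR domain family share the three-finger fold with Ly6d, and several lie in the same cluster on chromosome 15. Lynx1, a modulator of nicotinic receptors, is 9 kb from Ly6d, Ly6e is 191 kb away and Gpihbp1, which carries lipoprotein lipase across capillaries, 833 kb. Of the 8 family members tested, 6 rose in MASH vehicle against chow (Ly6a, Ly6c2, Ly6e, Lynx1, Plaur and Gpihbp1; median log2 fold change 0.72, against 0.19 over all tested genes, of which 29.5% rose), and 4 did so with quantile normalization. Removing the GC trend left 2. Against MASH vehicle 2 of the 8 fell with FGF21, Plaur and Cd59b (median −0.21, against −0.03 over all tested genes, of which 4.28% fell), and 1 with the GC trend removed. Cd59b was named after its value was seen. Plaur, the urokinase receptor, was at 0.675 ± 0.126 TPM in FGF21, 2.67 ± 0.918 TPM in MASH vehicle and 0.60 ± 0.356 TPM in chow. Its log2 fold change was −1.11 with FGF21 (limma adjusted p = 0.00265) and 1.19 on the diet (adjusted p = 0.000222). Plaur passed the filter only through the MASH vehicle group, so these p-values are not read as a test. Ly6e, an interferon-induced antigen, averaged 356 ± 41.8 TPM in FGF21, 335 ± 56.9 TPM in MASH vehicle and 215 ± 22.7 TPM in chow. It rose on the diet (0.63, limma adjusted p = 0.00289), a call lost with the GC trend removed (0.27, adjusted p = 0.104), and did not pass with FGF21 (0.10, adjusted p = 0.68). The neighbour Lynx1 averaged 2.05 ± 0.351 TPM in FGF21 and Ly6a 17.9 ± 2.63 TPM, and neither had a fold change past the threshold with FGF21 against MASH vehicle.

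**Figure D2:**
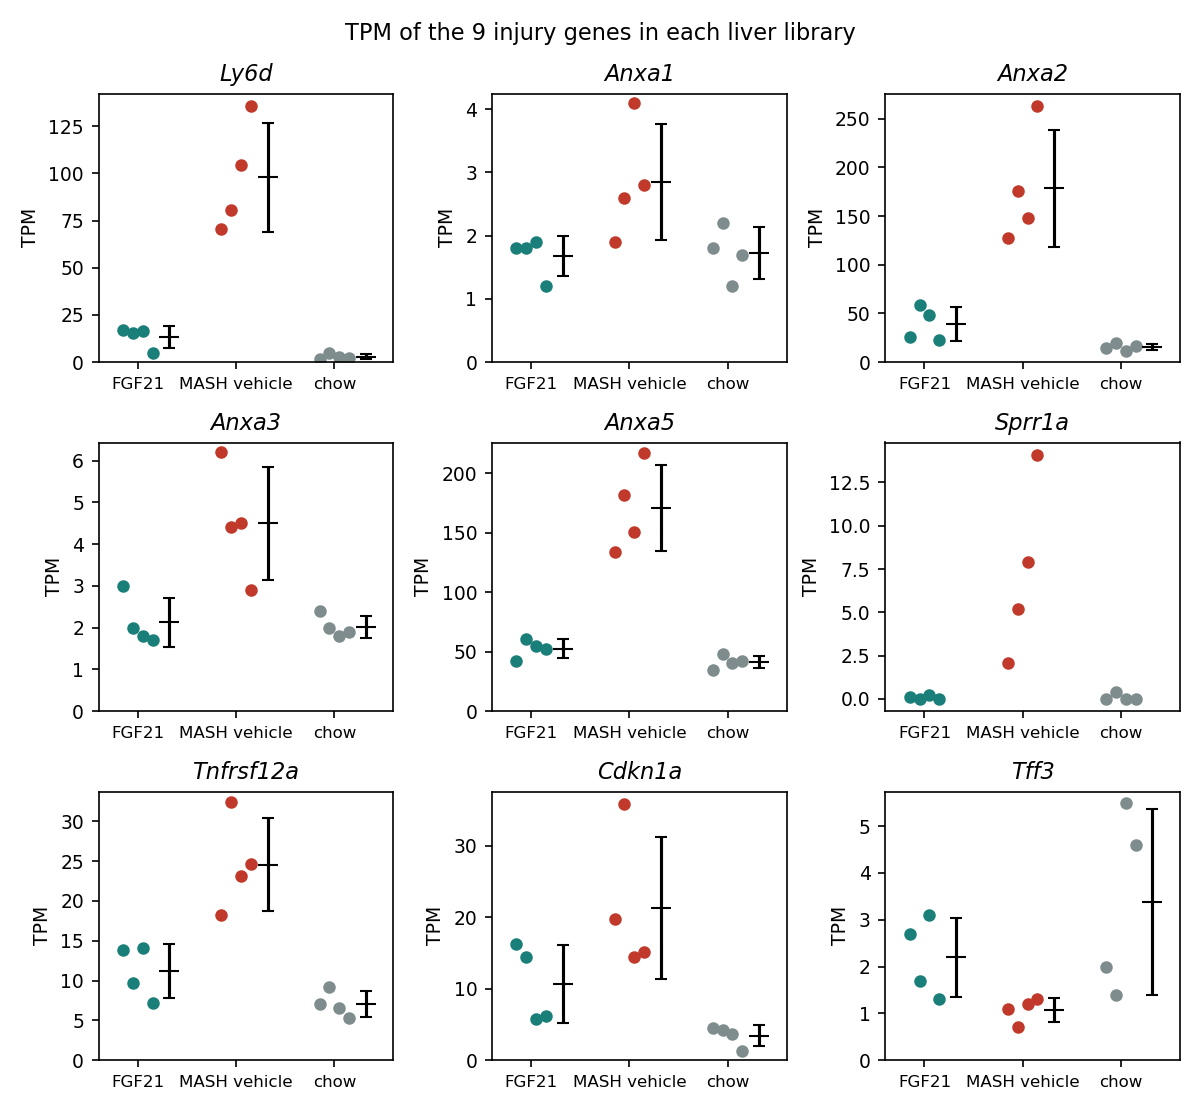
TPM of the 9 genes in each library, FGF21, MASH vehicle and chow from left to right in each panel, with 1 point per library and the mean with SD beside the points except for Sprr1a, which is listed at 0 in several libraries. Ly6d, Anxa2, Anxa5, Sprr1a and Tnfrsf12a have every MASH vehicle library above every FGF21 and chow library, and Tff3 has its lowest values in MASH vehicle.

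Among the annexins, Anxa2 and Anxa5 were the abundant members that differed most between the groups. Anxa2 (chromosome 9, 69453620 to 69491795, plus strand) was measured at 25.9, 58.3, 48.6 and 22.8 TPM in FGF21, at 127, 176, 148 and 263 TPM in MASH vehicle and at 15, 19.5, 11.2 and 16.9 TPM in chow. The 3 groups did not overlap, with the FGF21 libraries between the others. Its means were 38.9 ± 17.3 TPM in FGF21, 179 ± 59.8 TPM in MASH vehicle and 15.7 ± 3.49 TPM in chow. Its log2 differences were −2.22 ± 0.294 for FGF21 against MASH vehicle, 3.40 ± 0.294 for MASH vehicle against chow and 1.18 ± 0.294 for FGF21 against chow. The last of these no longer passed the threshold of the whole-table fit with the GC trend removed.

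Anxa5 (chromosome 3, 36448923 to 36475894, minus strand), which binds phosphatidylserine exposed on dying cells, stood at 41.9, 60.9, 54.7 and 52.4 TPM in FGF21, at 134, 181, 151 and 217 TPM in MASH vehicle and at 34.8, 47.7, 40.7 and 42.3 TPM in chow. The MASH vehicle libraries were above all others, and the FGF21 and chow ranges overlapped. The log2 difference was −1.67 ± 0.159 for FGF21 against MASH vehicle, 2.0 ± 0.159 for MASH vehicle against chow and 0.33 ± 0.159 for FGF21 against chow. By mean level Anxa5 ranked at place 1940 in FGF21, 727 in MASH vehicle and 2012 in chow, close to Anxa2 at 2462, 703 and 3931.

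Anxa1 and Anxa3 were expressed at a few TPM. Anxa1 (chromosome 19, 20373428 to 20390944, minus strand), a ligand of formyl peptide receptors that limits neutrophil entry, had 1.8, 1.8, 1.9 and 1.2 TPM in FGF21, 1.9, 2.6, 4.1 and 2.8 TPM in MASH vehicle and 1.8, 2.2, 1.2 and 1.7 TPM in chow. Its groups overlapped in each comparison, and its log2 differences were −0.50 ± 0.168 for FGF21 against MASH vehicle and 0.48 ± 0.168 for MASH vehicle against chow. The diet difference of Anxa1 was past the threshold of the whole-table fit, but fell short of it under 9 of 24 alternatives: 3 other scalings, and the omission of chow replicate 1, 3 or 4 or of MASH vehicle replicate 2, 3 or 4. Its difference from MASH vehicle with FGF21 was past the threshold only without MASH vehicle replicate 1. Anxa3 (chromosome 5, 96793339 to 96845966, plus strand), an annexin abundant in neutrophils, had 3.0, 2.0, 1.8 and 1.7 TPM in FGF21, 6.2, 4.4, 4.5 and 2.9 TPM in MASH vehicle and 2.4, 2.0, 1.8 and 1.9 TPM in chow. The lowest MASH vehicle library, at 2.9 TPM, lay above all of chow but below FGF21 replicate 1, and the log2 differences were −0.80 ± 0.174 for FGF21 against MASH vehicle and 0.83 ± 0.174 for MASH vehicle against chow.

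Summed over the 11 annexin genes of the table, annexin transcripts made up 370 ± 60.3 TPM in FGF21, 627 ± 111 TPM in MASH vehicle and 248 ± 16.6 TPM in chow. The makeup of that sum differed. Anxa2 took 10.5% ± 4.16 of it in FGF21, 27.9% ± 4.13 in MASH vehicle and 6.30% ± 1.22 in chow, and Anxa5 took 14.3% ± 1.28 in FGF21, 27.1% ± 1.55 in MASH vehicle and 16.6% ± 1.05 in chow. Anxa6, a large annexin with a doubled core domain, took 38.7% ± 6.52 in FGF21, 20.9% ± 2.43 in MASH vehicle and 35.7% ± 1.16 in chow. TPM is per length, so these shares compare transcript numbers between the genes.

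**Figure D3:**
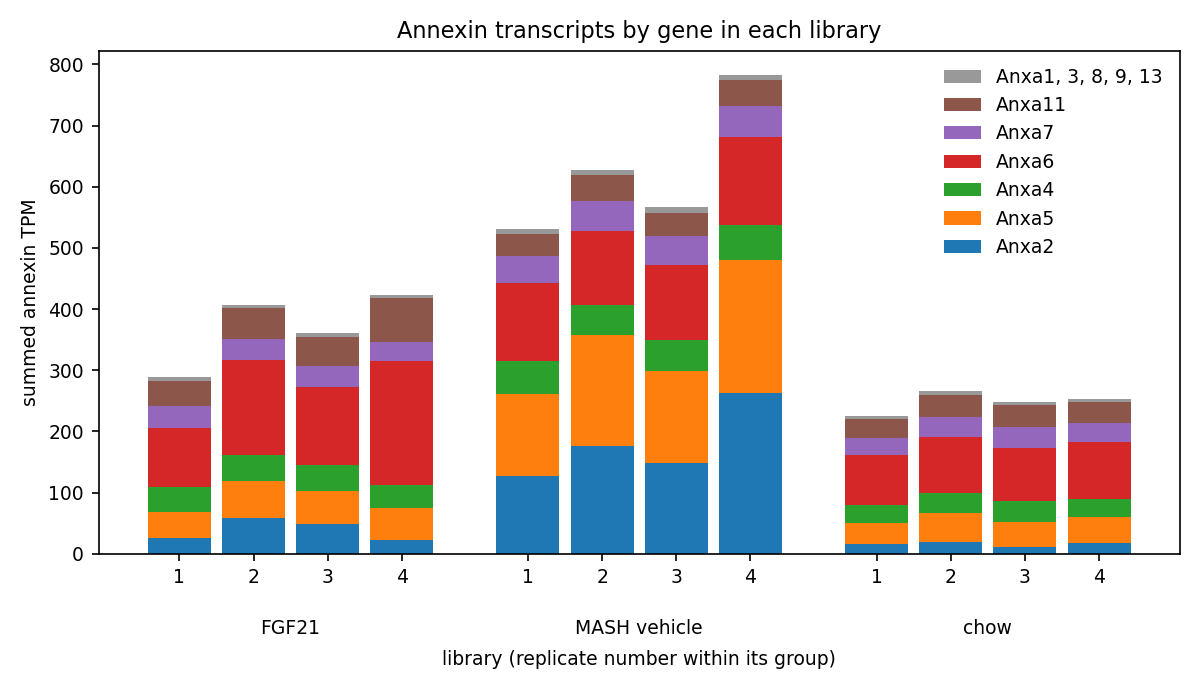
Annexin transcripts in each library as stacked bars in TPM, with the replicate number of each library on the x axis and the groups FGF21, MASH vehicle and chow from left to right. The blue and orange parts, Anxa2 and Anxa5, take 27.9% and 27.1% of the height on average in MASH vehicle, while Anxa6 (red) is the tallest part in each FGF21 and chow library.

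Of the 10 other annexins and annexin partners tested, 7 rose in MASH vehicle against chow (Anxa4, Anxa6, Anxa7, S100a4, S100a10, S100a11 and Fpr1; median log2 fold change 0.85, against 0.19 over all tested genes, of which 29.5% rose). Against MASH vehicle 5 fell with FGF21 (Anxa4, Anxa7, S100a4, S100a10 and S100a11; median −0.41, against −0.03 over all tested genes, of which 4.28% fell), 4 with median-of-ratios scaling and 3 with the GC trend removed. S100a4 and Fpr1 were named after their values were seen. S100a11, a calcium-binding partner of Anxa1, averaged 17.1 ± 3.25 TPM in FGF21, 63.0 ± 16 TPM in MASH vehicle and 7.92 ± 1.32 TPM in chow. Its log2 fold change was −1.81 with FGF21 (limma adjusted p = 0.000168) and 2.82 on the diet (adjusted p = 1.75e-06). S100a10, the partner of Anxa2, averaged 241 ± 59.8 TPM in FGF21, 488 ± 27.9 TPM in MASH vehicle and 188 ± 19.4 TPM in chow, with a log2 fold change of −1.05 with FGF21 (limma adjusted p = 0.00179) and 1.38 on the diet (adjusted p = 2.89e-05). The ratio of S100a10 to Anxa2 in TPM was 6.66 ± 1.43 in FGF21, 2.91 ± 0.706 in MASH vehicle and 12.5 ± 3.06 in chow.

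The remaining annexins had smaller fold changes. Anxa7 was at 34.3 ± 2.21 TPM in FGF21, 47.7 ± 2.42 TPM in MASH vehicle and 31.9 ± 2.50 TPM in chow (−0.46 with FGF21, limma adjusted p = 0.0106; 0.57 on the diet, adjusted p = 0.000679). Anxa4 was at 40.6 ± 2.90 TPM in FGF21, 52.5 ± 3.29 TPM in MASH vehicle and 31.5 ± 2.26 TPM in chow. It rose on the diet (0.72, limma adjusted p = 0.000126), and its fall with FGF21 (−0.37, adjusted p = 0.0318) was lost under 7 of the alternatives tried. Anxa6 averaged 145 ± 45.3 TPM in FGF21, 129 ± 10.9 TPM in MASH vehicle and 88.3 ± 4.51 TPM in chow. Its rise on the diet (0.54, limma adjusted p = 0.027) was lost under 8 alternatives, among them median-of-ratios scaling. With FGF21 it did not pass (0.12, adjusted p = 0.713), but without FGF21 replicates 1 and 3 it was higher than in MASH vehicle (0.45, adjusted p = 0.022). Anxa11, at 53 ± 13.5 TPM in FGF21, 39.5 ± 3.84 TPM in MASH vehicle and 34.4 ± 2.51 TPM in chow, likewise passed only without those libraries (0.61, adjusted p = 0.0115, against 0.39 and adjusted p = 0.12 with all libraries), apart from array weights and the omission of FGF21 replicate 1 alone. Anxa9, at 1.18 TPM in FGF21, 1.02 TPM in MASH vehicle and 0.625 TPM in chow, did not pass in either of these contrasts, except on the diet with array weights.

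Sprr1a (chromosome 3, 92483952 to 92485895, minus strand) was detected mainly in MASH vehicle. It was listed at 0.1, 0, 0.2 and 0 TPM in FGF21, at 2.1, 5.2, 7.9 and 14.1 TPM in MASH vehicle and at 0, 0.4, 0 and 0 TPM in chow. The MASH vehicle libraries lay above all FGF21 and chow libraries and spanned a wide range among themselves. Its log2 difference was −2.73 ± 0.341 for FGF21 against MASH vehicle, 2.71 ± 0.341 for MASH vehicle against chow and −0.02 ± 0.341 for FGF21 against chow, values that depend on the added 1 because 2 groups are at or near 0. Of 27 other genes of the cornified envelope and squamous epithelium, 8 were analysed and 6 tested. Of these, 2 rose on the diet, Lor and Tgm2, a share close to the 29.5% of all tested genes that rose (median 0.52, against 0.19 over all genes), and with the GC trend removed 1 rose. With FGF21 against MASH vehicle, limma called 0 of the 6, where 10.3% of all tested genes were called. Of the 6, 1 had an unadjusted p under 0.05, and 1 was called lower with the GC trend removed. The median of the 6 was −0.05, against −0.03 over all tested genes. Tgm2, a widely expressed transglutaminase, averaged 270 ± 62.2 TPM in FGF21, 250 ± 24.5 TPM in MASH vehicle and 110 ± 6.66 TPM in chow (1.18 on the diet, limma adjusted p = 4.32e-05; 0.09 with FGF21, adjusted p = 0.725). Lor, the cornified envelope protein loricrin, stayed near 1 TPM, with 1.00 ± 0.163 TPM in FGF21, 1.12 ± 0.0957 TPM in MASH vehicle and 0.475 ± 0.050 TPM in chow (0.53 on the diet, limma adjusted p = 0.000637). Lor would not have passed the filter without the MASH vehicle group, so this p-value is not read as a test. Of 6 keratinocyte markers only Krt10 was analysed, at 1.1 to 2.3 TPM in FGF21, 1.6 to 2.6 TPM in MASH vehicle and 1.0 to 2.1 TPM in chow, and the ranges overlapped.

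Tnfrsf12a (chromosome 17, 23675445 to 23677468, minus strand) stood at 13.9, 9.7, 14.1 and 7.2 TPM in FGF21, at 18.2, 32.4, 23.1 and 24.6 TPM in MASH vehicle and at 7.0, 9.2, 6.6 and 5.3 TPM in chow. All MASH vehicle libraries were above all others, and FGF21 replicate 4 lay within the chow range. The means were 11.2 ± 3.36 TPM in FGF21, 24.6 ± 5.89 TPM in MASH vehicle and 7.03 ± 1.62 TPM in chow. The log2 difference was −1.08 ± 0.220 for FGF21 against MASH vehicle, 1.67 ± 0.220 for MASH vehicle against chow and 0.58 ± 0.220 for FGF21 against chow. The difference between FGF21 and chow was past the threshold of the whole-table fit, but fell short of it under 13 of the alternatives.

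Of 17 tested genes of TWEAK and Fn14 signalling, 11 rose in MASH vehicle against chow (median 0.62, against 0.19 over all tested genes, of which 29.5% rose), 8 with median-of-ratios scaling and 5 with the GC trend removed. With FGF21 against MASH vehicle limma called 0 of the 17, where 10.3% of all tested genes were called. Of the 17, 4 had an unadjusted p under 0.05, and 2 were called lower with the GC trend removed. The median of the 17 was −0.003, and its sign turned to 0.01 with median-of-ratios scaling. The ligand TWEAK itself, Tnfsf12, averaged 19 ± 4.27 TPM in FGF21, 23.5 ± 3.92 TPM in MASH vehicle and 10.3 ± 1.58 TPM in chow. It rose on the diet (1.11, limma adjusted p = 0.000255) and did not pass with FGF21 (−0.30, adjusted p = 0.276), except as lower with the GC trend removed. Relb, a subunit of NF-kappaB in the noncanonical pathway, averaged 5.55 ± 1.16 TPM in FGF21, 8.70 ± 1.80 TPM in MASH vehicle and 2.65 ± 0.819 TPM in chow (1.42 on the diet, limma adjusted p = 0.00013; −0.56 with FGF21, adjusted p = 0.0801). Without FGF21 replicates 1 and 3 Relb passed as lower with FGF21 (−0.78, adjusted p = 0.0247), and likewise without FGF21 replicate 1 alone, with array weights and with the GC trend removed. Traf2, an adaptor of TNF receptors, averaged 23.5 ± 1.84 TPM in FGF21, 19 ± 0.403 TPM in MASH vehicle and 11.2 ± 1.14 TPM in chow (0.72 on the diet, limma adjusted p = 0.000197; 0.29 with FGF21, adjusted p = 0.095).

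Cdkn1a (chromosome 17, 29090976 to 29100727, plus strand) was at 16.3, 14.4, 5.8 and 6.2 TPM in FGF21, at 19.8, 35.9, 14.5 and 15.1 TPM in MASH vehicle and at 4.5, 4.2, 3.7 and 1.3 TPM in chow. The FGF21 and MASH vehicle ranges overlapped, through FGF21 replicate 1, and both lay above all chow libraries. The means were 10.7 ± 5.46 TPM in FGF21, 21.3 ± 10 TPM in MASH vehicle and 3.43 ± 1.45 TPM in chow. Its log2 difference was −0.97 ± 0.372 for FGF21 against MASH vehicle, 2.32 ± 0.372 for MASH vehicle against chow and 1.35 ± 0.372 for FGF21 against chow, and the last of these was not past the threshold with the GC trend removed. The difference between FGF21 and MASH vehicle was not past the threshold of the whole-table fit, but was past it without FGF21 replicate 1.

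Cdkn1a is a classic target of the transcription factor p53, and 2 p53 decamers stand in capitals in its printed promoter. Of 19 other genes tested of a list of p53 targets, which also holds Trp53, the gene of p53 itself, 8 rose in MASH vehicle against chow and 1 fell. Trp53 was among the 8, and the 1 was Dcxr (median 0.29, against 0.19 over all tested genes, of which 29.5% rose and 7.84% fell). With FGF21 against MASH vehicle 4 fell (Gadd45a, Btg2, Phlda3 and Plk2) and 1 rose, Sesn2 (median −0.17, against −0.03 over all tested genes, of which 4.28% fell and 6.02% rose). Dcxr, a carbonyl reductase, and Sesn2, which restrains mTOR signalling, were named after their values were seen. Dcxr averaged 107 ± 21.7 TPM in FGF21, 120 ± 21.8 TPM in MASH vehicle and 186 ± 19.4 TPM in chow, and Sesn2 averaged 18.1 ± 4.93 TPM in FGF21, 10.9 ± 1.72 TPM in MASH vehicle and 6.22 ± 0.532 TPM in chow. With the GC trend removed Sesn2 was no longer called with FGF21.

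Among the targets that fell with FGF21, Btg2, an antiproliferative gene, averaged 4.15 ± 0.580 TPM in FGF21, 8.30 ± 1.00 TPM in MASH vehicle and 3.80 ± 0.949 TPM in chow (−0.85 with FGF21, limma adjusted p = 0.00469; 0.97 on the diet, adjusted p = 0.000323). The growth arrest gene Gadd45a averaged 8.32 ± 0.714 TPM in FGF21, 16.3 ± 2.22 TPM in MASH vehicle and 7.45 ± 2.15 TPM in chow (−0.89 with FGF21, limma adjusted p = 0.0102; 1.07 on the diet, adjusted p = 0.000684). Phlda3, an inhibitor of Akt, averaged 2.0 ± 0.678 TPM in FGF21, 3.92 ± 0.754 TPM in MASH vehicle and 1.02 ± 0.171 TPM in chow (−0.74 with FGF21, limma adjusted p = 0.0165; 1.27 on the diet, adjusted p = 0.000108), and its FGF21 call was lost without MASH vehicle replicate 4 (adjusted p = 0.0533). Plk2, a stress-induced kinase, averaged 2.73 ± 0.299 TPM in FGF21, 4.25 ± 0.619 TPM in MASH vehicle and 2.52 ± 0.556 TPM in chow. Its fall with FGF21 (−0.49, limma adjusted p = 0.0328) was lost under 8 alternatives, among them the fit without FGF21 replicates 1 and 3 (adjusted p = 0.0627).

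Mdm2 and Ccng1 are given as common readouts of the pathway, and Trp53 as the gene of p53. Mdm2, the ubiquitin ligase that limits p53, averaged 7.0 ± 0.821 TPM in FGF21, 7.53 ± 0.866 TPM in MASH vehicle and 5.90 ± 0.942 TPM in chow, and passed neither with FGF21 (−0.09, limma adjusted p = 0.702) nor, except with array weights, on the diet (0.31, adjusted p = 0.0746). Ccng1, cyclin G1, averaged 10 ± 3.36 TPM in FGF21, 12.9 ± 0.465 TPM in MASH vehicle and 12.9 ± 3.49 TPM in chow (−0.38 with FGF21, limma adjusted p = 0.243; 0.04 on the diet, adjusted p = 0.899). Without FGF21 replicates 1 and 3 Ccng1 passed as lower with FGF21 (−0.59, adjusted p = 0.0394), as it did without FGF21 replicate 1 alone and with array weights. Trp53 itself averaged 39.2 ± 2.44 TPM in FGF21, 39.4 ± 1.64 TPM in MASH vehicle and 32.1 ± 2.50 TPM in chow. Its diet difference (0.29, limma adjusted p = 0.0292) was lost under 9 alternatives, among them median-of-ratios scaling, and turned to −0.08 with the GC trend removed.

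Of 12 CDK inhibitors, cyclins and kinases of G1 tested, 7 rose on the diet on TPM (median 0.41, against 0.19 over all tested genes, of which 29.5% rose), while with median-of-ratios scaling 2 rose and 1 fell. With FGF21 against MASH vehicle 1 of the 12 fell (median −0.12, against −0.03 over all tested genes, of which 4.28% fell). It was Ccnd1, the cyclin that drives entry into the cell cycle. Ccnd1 averaged 9.90 ± 2.65 TPM in FGF21, 18.1 ± 2.79 TPM in MASH vehicle and 5.33 ± 1.15 TPM in chow (−0.83 with FGF21, limma adjusted p = 0.0155; 1.60 on the diet, adjusted p = 4.4e-05), and its FGF21 call was lost without FGF21 replicate 2 (adjusted p = 0.0505) or MASH vehicle replicate 4 (0.0511). The inhibitors Cdkn2a and Cdkn2b, known markers of senescence, were at most 0.4 and 0.6 TPM in any library and were not tested.

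Tff3 (chromosome 17, 31125306 to 31129646, minus strand) ran the other way from the other 8 genes. It was at 2.7, 1.7, 3.1 and 1.3 TPM in FGF21, at 1.1, 0.7, 1.2 and 1.3 TPM in MASH vehicle and at 2.0, 1.4, 5.5 and 4.6 TPM in chow. Every MASH vehicle library lay below every chow library, and FGF21 replicate 4 equalled MASH vehicle replicate 4. The means were 2.20 ± 0.841 TPM in FGF21, 1.08 ± 0.263 TPM in MASH vehicle and 3.38 ± 1.98 TPM in chow, with log2 differences of 0.60 ± 0.284 for FGF21 against MASH vehicle and −0.96 ± 0.284 for MASH vehicle against chow. The diet difference fell short of the threshold without chow replicate 3 or without MASH vehicle replicate 2. FGF21 replicates 1 and 3, the highest of their group for Tff3, are the libraries with Cela2a, and without them the difference from MASH vehicle was 0.27 ± 0.338. The related peptide Tff2 was at 21.5 and 24.8 TPM in those 2 libraries and at most 0.5 TPM in the other 10. Of the 7 trefoil and mucosal partners only Muc1 entered the tests, and limma called it in neither contrast (0.17 on the diet, −0.04 with FGF21, unadjusted p not under 0.05).

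In all, the whole-table fit put 9 of 9 genes past its threshold for MASH vehicle against chow, 8 higher and 1 lower, where 37.3% of all tested genes were called, 29.5% higher and 7.84% lower. For FGF21 against MASH vehicle it put 6 of 9 past the threshold, all lower (Ly6d, Anxa2, Anxa3, Anxa5, Sprr1a and Tnfrsf12a), where 10.3% of all tested genes were called, 4.28% lower and 6.02% higher. For FGF21 against chow it put 4 of 9 past the threshold, all higher (Ly6d, Anxa2, Tnfrsf12a and Cdkn1a), where 52% of all tested genes were called, 37.8% higher and 14.2% lower. Groups did not overlap for 8 of 9 genes between MASH vehicle and chow, 7 higher and 1 lower, where this held for 42.6% of all tested genes, 33.1% higher and 9.52% lower. They did not overlap for 5 genes between FGF21 and MASH vehicle, all lower, where this held for 14.1% of all tested genes, 6.63% lower and 7.47% higher. Between FGF21 and chow they did not overlap for 2 genes, both higher, where this held for 36.5% of all tested genes, 30.5% higher and 5.99% lower. The genes were chosen on these contrasts, and the contrasts share libraries, so nothing is read from the counts. The median log2 difference of the 9 was −1.08 for FGF21 against MASH vehicle, 2.0 for MASH vehicle against chow and 0.33 for FGF21 against chow.

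**Figure D4:**
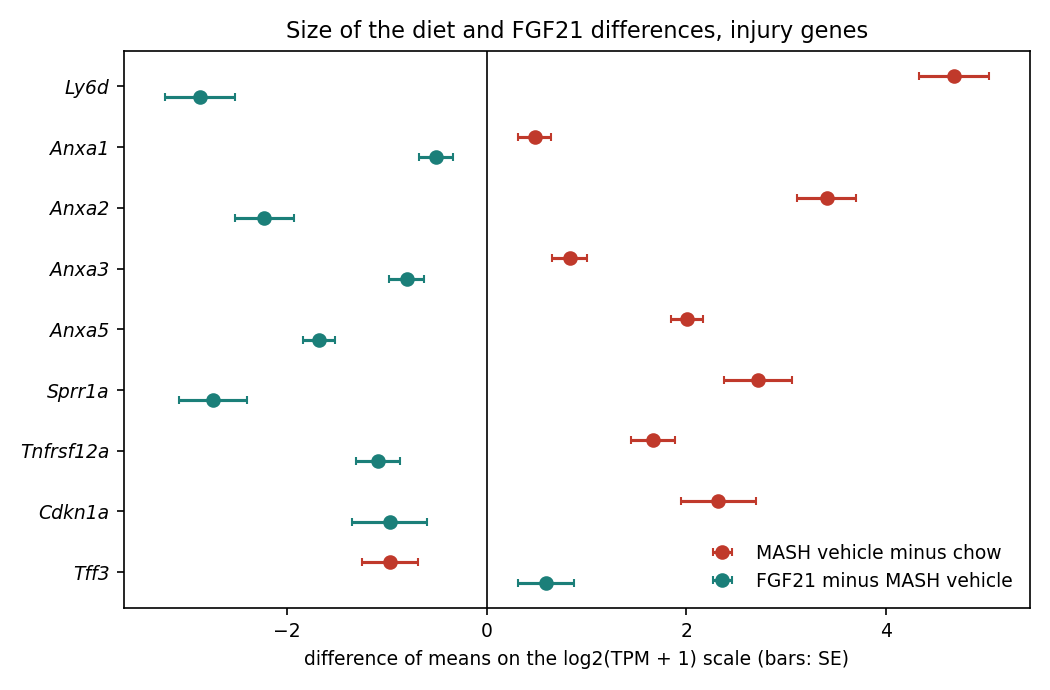
Log2 differences with SE for the 9 genes on the x axis, with MASH vehicle minus chow in red and FGF21 minus MASH vehicle in green, from the 3-group fit to 12 libraries. The diet difference runs from 4.67 for Ly6d to −0.96 for Tff3, and the FGF21 difference lies below 0 for each gene but Tff3.

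Within groups, the same libraries tended to stand at the ends for several of the genes. FGF21 replicate 4 was the lowest or tied lowest of its group for 7 of 9 genes, Ly6d, Anxa1, Anxa2, Anxa3, Sprr1a, Tnfrsf12a and Tff3. MASH vehicle replicate 4 was the highest or tied highest for 5 (Ly6d, Anxa2, Anxa5, Sprr1a and Tff3), and MASH vehicle replicate 1 the lowest for 6 (Ly6d, Anxa1, Anxa2, Anxa5, Sprr1a and Tnfrsf12a). Chow replicate 2 was the highest for 6. MASH vehicle replicate 4 also had the highest value of Trem2, a receptor of lipid-associated macrophages, with 16.2 TPM against 3.5 to 4.8 TPM in the other MASH vehicle libraries, and of Gpnmb, with 6.8 TPM against 1.6 to 3.7 TPM.

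Over the 12 libraries the levels of Ly6d ran most closely with those of Anxa2 (Pearson's r of log2(TPM + 1) 0.97), Tnfrsf12a (0.95) and Anxa5 (0.94) among the 9 genes, and Tff3 ran against each of the others (−0.54 to −0.72). All genes share the 3 groups and the same libraries, so these values are a description only. Over the whole table, the genes most like Ly6d were Unc119 (0.98), Anxa4 (0.98) and Tax1bp3 (0.98). Those most like Anxa2 were Uap1l1 (0.99), Nudt18 (0.98) and Gnai1 (0.98), and those most like Anxa5 were Gnai1 (0.98), Mmp12 (0.98) and S100a11 (0.97). For Sprr1a they were Sdcbp2 (0.99), Plaur (0.97) and Mmp12 (0.96), and for Tnfrsf12a Msantd4 (0.97), Unc119 (0.97) and Ly6d (0.95). For Cdkn1a they were Icam2 (0.96), Psat1 (0.95) and Cptp (0.95). The closest partners of Anxa1 were Gprc5b (0.95), Dipk2a (0.94) and Col3a1 (0.92), those of Anxa3 were Cxcl10 (0.92), Bcl2a1d (0.92) and Cdca3 (0.92), and those of Tff3 were Snrpe (0.87), Enho (0.84) and Sytl1 (0.84).

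Of 13 other genes of hepatocyte injury, repair and the fetal liver tested, 9 rose in MASH vehicle against chow (median 1.12, against 0.19 over all tested genes, of which 29.5% rose), 6 with the GC trend removed. With FGF21 against MASH vehicle 6 fell, Krt8, Krt18, Atf3, Lcn2, Spp1 and Cd63 (median −0.91, against −0.03 over all tested genes, of which 4.28% fell), of which Spp1 and Cd63 were named after their values were seen. Lcn2, the iron-binding acute phase protein lipocalin-2, averaged 13.8 ± 7.06 TPM in FGF21, 84.2 ± 24.7 TPM in MASH vehicle and 4.83 ± 1.38 TPM in chow. Its log2 fold change was −2.61 with FGF21 (limma adjusted p = 0.000495) and 3.86 on the diet (adjusted p = 3.24e-06). Krt8 and Krt18 encode the keratin pair of hepatocyte filaments. Krt18 averaged 293 ± 61.3 TPM in FGF21, 568 ± 69.6 TPM in MASH vehicle and 260.5 ± 15.3 TPM in chow (−0.97 with FGF21, limma adjusted p = 0.00198; 1.12 on the diet, adjusted p = 9.48e-05). Krt8 averaged 403 ± 122 TPM in FGF21, 817 ± 146 TPM in MASH vehicle and 349 ± 19.1 TPM in chow (−1.05 with FGF21, limma adjusted p = 0.00531; 1.21 on the diet, adjusted p = 0.000356). Atf3, a stress-induced transcription factor, averaged 0.875 ± 0.171 TPM in FGF21, 3.67 ± 1.28 TPM in MASH vehicle and 0.45 ± 0.0577 TPM in chow. Its log2 fold change was −1.28 with FGF21 (limma adjusted p = 0.00106) and 1.65 on the diet (adjusted p = 1.61e-05). Atf3 passed the filter only through the MASH vehicle group, so these p-values are not read as a test. Spp1, osteopontin, averaged 19 ± 2.40 TPM in FGF21, 45.0 ± 19.3 TPM in MASH vehicle and 25.2 ± 7.05 TPM in chow, and Cd63, a tetraspanin of lysosomes and exosomes, 12.1 ± 2.71 TPM in FGF21, 23.9 ± 6.74 TPM in MASH vehicle and 4.78 ± 0.907 TPM in chow.

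The AP-1 letters printed in capitals for Anxa2 and Sprr1a are of the kind that dimers of Fos, Jun and related proteins can bind, and 9 genes of these families were tested. On the diet 6 rose (Fosl2, Jun, Jund, Maff, Mafk and Batf3; median 0.73, against 0.19 over all tested genes, of which 29.5% rose). With FGF21 against MASH vehicle 3 fell, Jun, Jund and Maff (median −0.08, against −0.03 over all tested genes, of which 4.28% fell). Jun averaged 5.78 ± 0.660 TPM in FGF21, 14.2 ± 4.68 TPM in MASH vehicle and 5.22 ± 0.386 TPM in chow (−1.12 with FGF21, limma adjusted p = 0.00344; 1.24 on the diet, adjusted p = 0.000243). Maff averaged 6.90 ± 0.876 TPM in FGF21, 13.7 ± 1.21 TPM in MASH vehicle and 5.0 ± 1.09 TPM in chow (−0.89 with FGF21, limma adjusted p = 0.0022; 1.30 on the diet, adjusted p = 1.83e-05). Jund averaged 54.9 ± 12.9 TPM in FGF21, 80.7 ± 8.60 TPM in MASH vehicle and 44.1 ± 7.38 TPM in chow, and its fall with FGF21 (−0.57, limma adjusted p = 0.0438) was lost under 10 alternatives. Fos, at 1.05 ± 0.1 TPM in FGF21, was called in neither contrast.

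Of 16 tested targets of the growth regulators YAP and TEAD, 9 rose on the diet (median 0.48, against 0.19 over all tested genes, of which 29.5% rose), 6 with median-of-ratios scaling or with the GC trend removed. With FGF21 against MASH vehicle 3 fell, Birc5, Igfbp3 and Asap1, and 1 rose, Amotl2 (median −0.15, against −0.03 over all tested genes, of which 4.28% fell and 6.02% rose). Birc5, the mitotic inhibitor of apoptosis survivin, averaged 0.90 TPM in FGF21, 2.90 ± 1.21 TPM in MASH vehicle and 0.875 TPM in chow. Its log2 fold change was −0.99 with FGF21 (limma adjusted p = 0.00419) and 1.01 on the diet (adjusted p = 0.000621). Birc5 passed the filter only through the MASH vehicle group, so these p-values are not read as a test. Igfbp3, a carrier of insulin-like growth factors, averaged 7.70 ± 2.49 TPM in FGF21, 15.5 ± 2.92 TPM in MASH vehicle and 6.12 ± 0.680 TPM in chow (−0.95 with FGF21, limma adjusted p = 0.00858; 1.20 on the diet, adjusted p = 0.000368). Amotl2, a feedback inhibitor of YAP, averaged 26.2 ± 7.21 TPM in FGF21, 16.4 ± 1.89 TPM in MASH vehicle and 11.7 ± 0.954 TPM in chow (0.62 with FGF21, limma adjusted p = 0.029; 0.45 on the diet, adjusted p = 0.0415). Its diet call was lost under 14 of 25 alternatives (adjusted p up to 0.488) and its FGF21 call under 6 (up to 0.0864). The fall of Asap1, a regulator of Arf GTPases, with FGF21 (−0.34, limma adjusted p = 0.0406) was lost under 13 alternatives. Ccn2, a widely used readout of YAP, averaged 2.40 ± 0.542 TPM in FGF21 and was called in neither contrast (limma adjusted p = 0.742 with FGF21 and 0.776 on the diet).

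**Figure D5:**
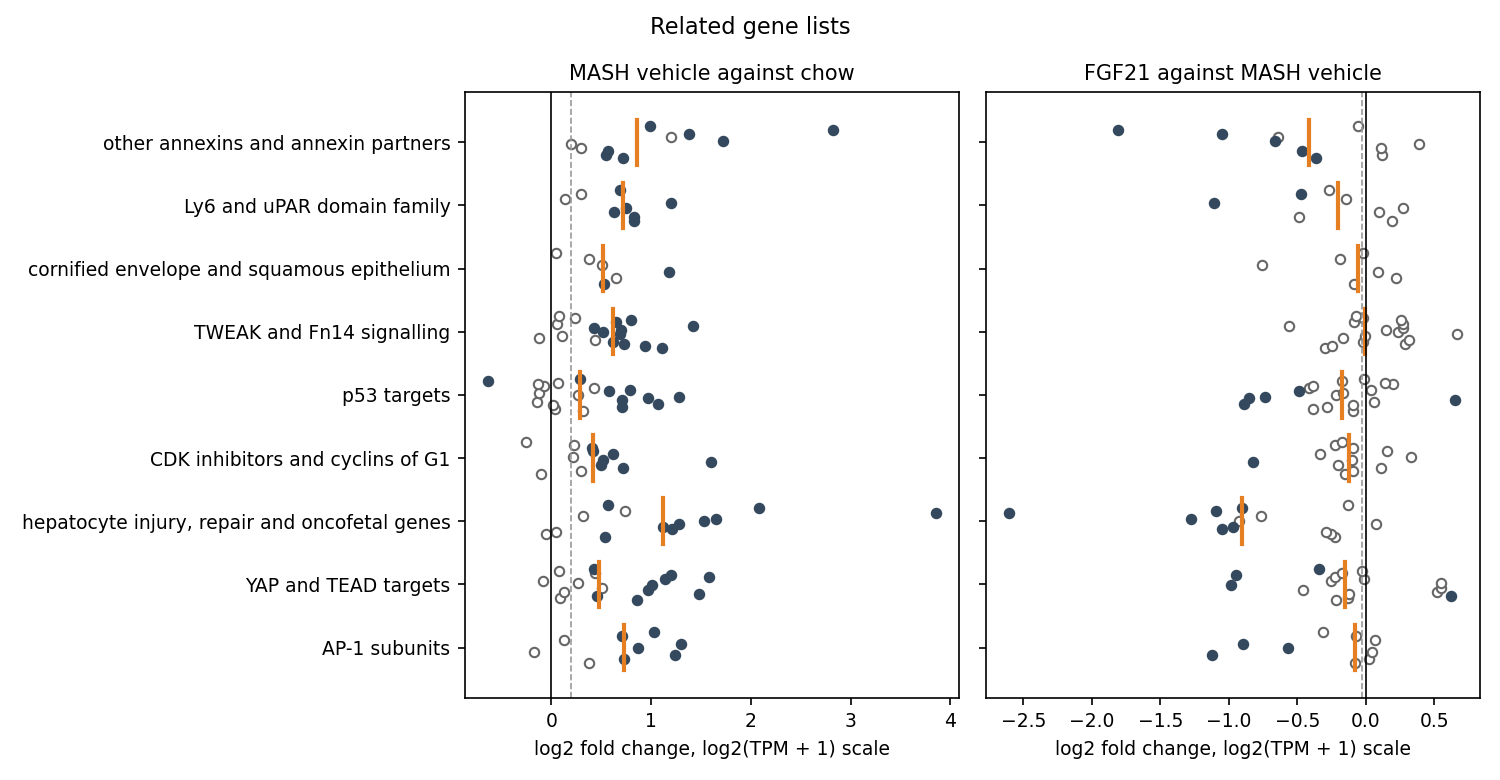
Log2 fold changes of tested genes in 9 of the 10 related gene lists (the trefoil list, with 1 tested gene, is not drawn), MASH vehicle against chow in the left panel and FGF21 against MASH vehicle in the right, with filled points for genes past the limma threshold, open points for the others, an orange bar at each list's median and a dashed line at the median of all genes. On the diet the medians of the 9 drawn lists lie to the right of the dashed line, and with FGF21 the median of the injury, repair and oncofetal list, at −0.91, lies furthest to the left.

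Markers of other liver cells are given beside these values, and not all of their lists moved. With FGF21 against MASH vehicle limma called 0 of 5 tested cholangiocyte, 0 of 7 endothelial and 0 of 3 lymphocyte markers. In that contrast 10.3% of all tested genes were called. Unadjusted p was under 0.05 for 1, 2 and 0 of these markers, in the same order. The sum of 10 macrophage markers was 316 to 548 TPM in FGF21, 406 to 551 TPM in MASH vehicle and 109 to 135 TPM in chow. All 10 rose on the diet, 9 with median-of-ratios or quantile scaling, where 29.5% of all tested genes rose. With FGF21 3 fell, Cd68, Trem2 and Gpnmb, and 7 were not called, where 4.28% of all tested genes fell. The 4 analysed of 9 neutrophil markers summed to 4.3 to 6.9 TPM in FGF21, 6.3 to 7.1 TPM in MASH vehicle and 1.3 to 2.6 TPM in chow. Of the 2 tested, S100a9 was called lower with FGF21 against MASH vehicle. That call was lost with median-of-ratios scaling, quantile normalization or the GC trend removed. Summed cholangiocyte markers were at 22.4 to 27.5 TPM in FGF21, 18.4 to 27.0 TPM in MASH vehicle and 18.9 to 20.3 TPM in chow, with Cftr listed at 0 in every library. Endothelial markers summed to 162 to 236 TPM in FGF21, 148 to 197 TPM in MASH vehicle and 91.1 to 103 TPM in chow, and stellate cell markers to 120 to 138 TPM in FGF21, 120 to 211 TPM in MASH vehicle and 60.6 to 81.4 TPM in chow. Among the 8 stellate cell markers, 2 fell with FGF21 against MASH vehicle (Col1a1 and Col3a1), 1 rose (Des) and 5 were not called. In that contrast 4.28% of all tested genes fell and 6.02% rose. Mesothelial markers were at 1.7 to 6.7 TPM in FGF21, 3.0 to 4.1 TPM in MASH vehicle and 1.0 to 2.2 TPM in chow, and lymphocyte markers at 5.8 to 9.6 TPM in FGF21, 6.4 to 8.6 TPM in MASH vehicle and 4.2 to 6.8 TPM in chow. The 3 analysed of 5 adipocyte markers summed to 6.5 to 48.6 TPM in FGF21, 39.4 to 83.7 TPM in MASH vehicle and 1.1 to 5.7 TPM in chow. Plin1 and Lep had no value, and only Plin4 entered the tests, so this sum is not read as adipocytes. The part of these cells in the values of the 9 genes was not tested.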

How the data were processed

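Whole-liver RNA was measured in 12 libraries. The deposited values are 1 normalized value per gene and library, headed FPKM per the file headers; each library sums to just under 1000000, so they were read as TPM, which the authors had scaled to transcript length and library total. Per the submitters' processing notes, Trim Galore 6.10, Salmon 1.10.2 and build mm10 were used; which annotation served, and how transcripts were joined into genes, is not given in the sources used here. All columns matched a sample by name, and 0 were left over. Depth cannot be recovered from TPM, so no counting intervals are given and the precision rests on the spread between libraries.

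Genes with at least 1 TPM in at least 4 libraries were fitted as log2(TPM + 1) in a 3-group model in limma 3.58.1 (R 4.3.3; trend and robust options), with two-sided tests and Benjamini-Hochberg adjustment over all tested genes at 0.05. The fit was checked on simulated data. Coordinates and GC content (98.4% of tested genes) came from GENCODE M21 on GRCm38, the assembly also called mm10, and promoters from RefSeq.

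The 9 genes, the 10 related lists and the 11 marker lists were chosen with earlier results of these data known. From each related list, up to 4 genes past the threshold in both MASH vehicle against chow and FGF21 against MASH vehicle were named, otherwise up to 2 with the smallest p, together with the other annexins tested, S100a10, Tnfsf12, Plaur, Ly6e, Mdm2, Ccng1 and Trp53. For each of the 9 genes the 3 genes with the highest Pearson's r were named, leaving out predicted genes. Alternatives were pseudocounts of 0.1 and 5, no filter, a filter at 5 TPM, median-of-ratios and quantile scaling, Mup and mitochondrially encoded genes taken out of the total, removal of the trend with GC content, only the 2 groups compared, array weights, no trend or robust options, the replicate number as a block, each library left out in turn, and FGF21 replicates 1 and 3 left out together.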

Additional observations from a re-analysis of the deposited data

Results flagged for a closer look

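In 8 of 129 groups of 4 libraries examined, 1 library was marked by Dixon's test, where chance alone gives about 1 group in 20. Among the 9 injury genes this held for 3 of 27 groups. FGF21 replicate 4 was low for Ly6d, at 4.9 TPM, and for Anxa1, at 1.2 TPM, and chow replicate 2 was marked for Sprr1a, at 0.4 TPM, where the other chow libraries are listed at 0.

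Among the related genes, Tgm2 was high in FGF21 replicate 2 (362 TPM) and Krt18 was high in MASH vehicle replicate 4 (672 TPM). Low values stood in MASH vehicle replicate 3 for Btg2 (6.8 TPM) and in chow replicate 4 for Mdm2 (4.5 TPM). Chow replicate 4 was also marked for Lor, at 0.4 TPM against 0.5 TPM in each of the other 3, which is 1 step of the deposited decimal. For Lor and Sprr1a the other 3 values are tied, which fixes Dixon's ratio at its highest value, so neither mark shows a library far from the rest.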

How the results depend on the processing

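Of 663 values of the 9 genes under 25 alternatives, 644 moved by less than the replicate SD and 19 did not. This count leaves calls aside, and that of Tnfrsf12a for FGF21 against chow was lost under 13 alternatives. Of 2523 values of the named genes, 2369 kept their side of the threshold and 3 changed direction. Those 3 were called in the main fit and were not past the threshold after the change. With the GC trend removed, Trp53 turned to −0.079 for MASH vehicle against chow and −0.16 for FGF21 against chow, and Maff to −0.12 for FGF21 against chow. That setting called 3349 genes for FGF21 against chow, against 5713, and 2 of the 9 genes, against 4. A filter at 5 TPM left 5 of the 9 genes, all past the threshold on the diet. For FGF21 against MASH vehicle, 1132 genes were called, against 631 with only these 2 groups, 2469 with array weights and 2989 without FGF21 replicates 1 and 3. For MASH vehicle against chow the split was 3242 higher and 861 lower, 1592 and 1980 with median-of-ratios scaling, 1683 and 1986 with quantile normalization and 1464 and 1381 with the GC trend removed; for FGF21 against chow it was 4153 and 1560, 2551 and 2680, 2528 and 2628, and 1623 and 1726 in the same order. Leaving out single libraries gave 2876 to 4897 genes and 7 to 9 of the 9 on the diet, 4321 to 6491 genes and 3 to 4 of the 9 for FGF21 against chow, and 569 to 2214 genes and 6 to 7 of the 9 for FGF21 against MASH vehicle (2214 without FGF21 replicate 1, 594 without 2 and 744 without 4; 595, 646 and 569 without MASH vehicle replicates 1, 3 and 4). The cause was not tested. The replicate numbers were not taken to pair the libraries, since r of the deviations was over 0.1 in 7 of 12 pairs of the same number (−0.18 to 0.41), against 9 of 36 pairs of different numbers. The pairs of replicates 1 and 4 were all over 0.1. These numbers are those of the sample titles. The library names number several of the libraries otherwise, and pairing by those names was not checked. With the replicate number as a block, limma called 4688 genes on the diet, 6111 for FGF21 against chow and 1593 for FGF21 against MASH vehicle, with 9, 5 and 7 of the 9 genes, Cdkn1a (adjusted p = 0.0134) among the last. Genes near 1 TPM, such as Anxa1, Lor and Atf3, are limited by the 1 decimal of the deposited values.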
